A study of Mus musculus with 8 samples.

Results

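The clustered Hox genes were followed in germ cells of mouse embryos at E15.5, in which Snf5 (Smarcb1), which encodes a subunit common to SWI/SNF remodelling complexes, had been deleted. The members were the rows of each expression table whose gene name was Hoxa, Hoxb, Hoxc or Hoxd followed by a paralog number. There were 39 such genes, each with 1 row in the female table of 29018 rows and 1 row in the male table of 30216 rows. All 39 symbols were present in both tables, and no Hox row carried a second gene name. In the mm10 coordinates of the files, the 11 Hoxa genes lay at chr6:52155367-52260880, the 10 Hoxb genes at chr11:96194361-96368253, the 9 Hoxc genes at chr15:102921131-103036852 and the 9 Hoxd genes at chr2:74668310-74765142.

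Germ cells were sorted by the fluorescence of an Oct4-EGFP transgene, which control and Snf5 CKO embryos both carried. Each sex had 2 control and 2 Snf5 CKO libraries, 8 in all, and expression was deposited as FPKM, the number of fragments per kilobase of transcript scaled to the mapped total of the library. Snf5 CKO embryos were Snf5 fx/Δ and carried TNAP-Cre, a Cre driven from the locus of tissue-nonspecific alkaline phosphatase that recombines mostly in germ cells that have reached the gonad. Controls were a mixture of Snf5 fx/+, Snf5 fx/Δ and Snf5 fx/+ with TNAP-Cre, so some controls carried 1 functional Snf5 allele. The labels give the strain as C57BL/6, whereas the methods describe a mixed background. Most libraries pooled several embryos, and Snf5 CKO male replicate 2 came from a single embryo. The deletion was mosaic: some germ cells of the Snf5 CKO gonads retained SNF5 protein, and most gonadal somatic cells retained it too. Nothing states that the libraries of a group came from separate litters, so p-values measure only the spread between these libraries. In bulk libraries, fewer cells of a type and less RNA per cell cannot be told apart.

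Hox genes encode homeodomain transcription factors that give segments of the embryo their identity along the head-to-tail axis. Within a cluster, paralogs 1 to 3 lie at the 3′ end and act in anterior regions, paralogs 4 to 8 act in the trunk, and paralogs 9 to 13 lie at the 5′ end and act in posterior regions, limbs and the urogenital tract. Retinoic acid receptors and Cdx factors switch the clusters on, Polycomb group proteins keep them silent, and Trithorax group proteins, among which the fly SWI/SNF ATPase Brahma was found, keep them active. In the early mouse embryo, germ cell precursors repress the Hox programme that is active in their somatic neighbours.

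Smarcb1 itself was 23.4 and 22.3 FPKM in the female control libraries against 4.24 and 2.47 FPKM in the female Snf5 CKO libraries. It was 141 and 167 FPKM in the male controls against 8.73 and 10.1 FPKM in the male Snf5 CKO. Both differences passed the limma test across all genes (female log2 change -2.48, SE 0.24, adjusted p = 0.00029; male -3.90, SE 0.18, adjusted p = 0.0022). Germ cell markers summed to 4760 and 4745 FPKM in female controls and 3364 and 3629 FPKM in female Snf5 CKO, with 4 of 9 tested genes called higher (Pou5f1, Dppa3, Tfap2c and Kit) and 2 lower (Mael and Sycp3). In males they summed to 4775 and 4990 against 4442 and 4938 FPKM, with 2 of 11 called higher (Tfap2c and Kit) and 4 lower (Mael, Sycp3, Nanos2 and Dnmt3l). Over all genes tested, 17.2% were called higher and 21.8% lower in females, and 14.3% higher and 17.5% lower in males. The part of these markers in the Hox differences was not tested. Markers of gonadal somatic cells were detected in every library as well, and none of the genes in the marker lists was at 0 in all 4 libraries of a sex.

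Clustered Hox genes were expressed at low levels in E15.5 germ cells, with a few exceptions. Their FPKM summed to 22.3 and 12.6 in the female control libraries and to 12.5 and 11.1 in the female Snf5 CKO libraries. In males the sums were 11.8 and 15.1 in control and 2.46 and 2.93 in Snf5 CKO libraries. The female groups thus adjoined each other, while the male groups lay apart. As a share of the FPKM of all named genes, the male sums corresponded to 18.5 and 19.1 ppm in controls and 3.77 and 2.92 ppm in Snf5 CKO. The female shares were 34.3 and 17.7 ppm in controls and 20.7 and 15.1 ppm in Snf5 CKO, so on this scale the female groups overlapped. Only 2 Hox genes per sex averaged at least 1 FPKM over the 4 libraries: Hoxd8 and Hoxd1 in females, and Hoxb7 and Hoxa7 in males. Another 9 female and 8 male Hox genes averaged between 0.2 and 1 FPKM. Hoxc11, Hoxc12 and Hoxd12 were listed at 0 in all 8 libraries, and Hoxa2, Hoxa6 and Hoxa11 were also at 0 in all 4 male libraries. Of all named genes, 23.1% were at 0 in all 4 female libraries and 19% in all 4 male libraries, against 3 and 6 of the 39 Hox genes. Every Hox row had the status OK in all 4 libraries of its sex, so no 0 was flagged as a failed estimate. Since the depth of the libraries is unknown, these genes are described as listed at 0.

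**Figure D1:**
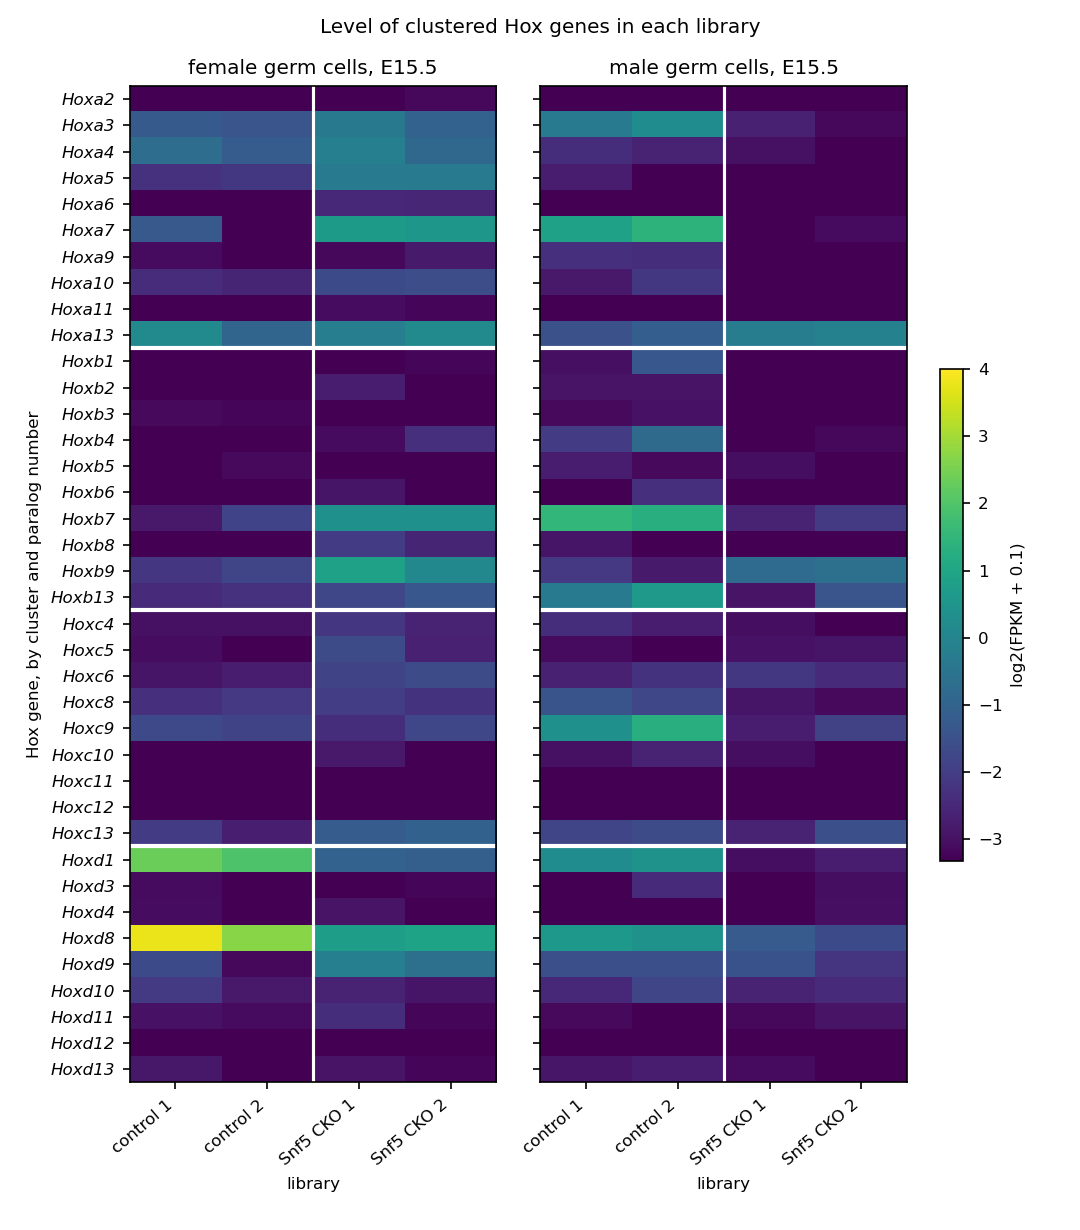
Level of the clustered Hox genes reported singly, as log2(FPKM + 0.1), in each of the 4 female and 4 male libraries, ordered by cluster and paralog number; white lines divide clusters and groups. Hoxd8 and Hoxd1 are the brightest female control rows, whereas in males Hoxb7 and Hoxa7 lead in controls and are near the bottom of the scale in Snf5 CKO.

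Hoxd1 and Hoxd8 were lower in Snf5 CKO in both sexes, and their upstream sequences are shown because they had the highest mean level of the members over the female libraries, through their control values. The 250 bases before each start are given 5′ to 3′ on the plus strand, from the RefSeq promoter table of GRCm38.p6, with each CG dinucleotide in capitals. The Hoxd1 stretch is chr2:74762730-74762979 and the Hoxd8 stretch is chr2:74704365-74704614.
Hoxd1: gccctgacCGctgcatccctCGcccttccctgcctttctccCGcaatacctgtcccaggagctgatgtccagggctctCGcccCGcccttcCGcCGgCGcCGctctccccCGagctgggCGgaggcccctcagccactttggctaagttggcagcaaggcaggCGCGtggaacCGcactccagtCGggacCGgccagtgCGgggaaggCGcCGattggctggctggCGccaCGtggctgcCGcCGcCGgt
Hoxd8: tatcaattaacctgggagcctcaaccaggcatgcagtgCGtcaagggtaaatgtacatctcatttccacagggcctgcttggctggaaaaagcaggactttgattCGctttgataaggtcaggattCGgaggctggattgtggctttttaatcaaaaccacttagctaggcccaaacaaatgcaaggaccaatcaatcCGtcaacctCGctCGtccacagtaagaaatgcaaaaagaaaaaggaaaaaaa
The Hoxd1 stretch held 24 CG dinucleotides and 71.6% G and C bases, against 6 and 44.4% in the Hoxd8 stretch. The stretches thus differed in CG density. An annotated exon of the long noncoding RNA Haglr, read from the opposite strand, lies within the Hoxd1 stretch at chr2:74762779-74762896.

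In females, Hoxd1 and Hoxd8 were lower in Snf5 CKO. Hoxd8, a trunk paralog with roles in the axial skeleton, was 13.6 and 6.43 FPKM in the control libraries and 1.61 and 1.81 FPKM in the Snf5 CKO libraries. Hoxd1, an anterior paralog known from the wiring of pain-sensing neurons, was 5.0 and 3.79 FPKM in control and 0.389 and 0.365 FPKM in Snf5 CKO. Neither gene's groups overlapped, and both control values of Hoxd8 exceeded every other Hox value in the female table. In limma's test on log2(FPKM + 1) over genes averaging at least 1 FPKM, with Benjamini-Hochberg adjustment, Hoxd8 changed by -1.94 (SE 0.32, adjusted p = 0.0023) and Hoxd1 by -1.96 (SE 0.20, adjusted p = 0.00036). A gene was called when its adjusted p was below 0.05 and its log2 change was at least 1 in size. These were the 2 Hox genes tested, where 21.8% of the 11642 genes tested were called lower and 17.2% called higher. Hoxd1 reached the filter only through its controls and so had to differ, and nothing is read from the count. The call of Hoxd8 was lost without the filter on level (adjusted p = 0.088, or 0.075 with a pseudocount of 0.1) and on linear FPKM (adjusted p = 0.058), over a range of 1.4e-05 to 0.088 in 18 alternatives. That of Hoxd1 held in all 17 alternatives, with adjusted p between 1.1e-05 and 0.028.

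The remaining Hox genes were below that level in females, and most of those that separated the groups were higher in Snf5 CKO. Because a filter of 1 FPKM left out 37 of the 39 genes, a fit with a minimum mean of 0.2 FPKM and a pseudocount of 0.1 was added after the data had been seen. It tested 11 female Hox genes and called 5 higher and 2 lower, where 19.5% of the 14201 genes tested were called higher and 24.7% lower. A gene that reached 0.2 FPKM only through the group in which it was high had to differ, so the count of 7 is not evidence of how Hox genes behaved in general. All log2 changes of this fit are on the log2(FPKM + 0.1) scale. With no filter at all, the 39 female Hox genes gave 1 lower call, Hoxd1, and none higher at a pseudocount of 1, where 7.44% of named genes were called lower and 5.91% higher. At a pseudocount of 0.1 they gave Hoxd1 lower and Hoxa5 and Hoxc6 higher, where 8.62% were called lower and 6.6% higher.

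Both paralogs 7 of the clusters, Hoxa7 and Hoxb7, rose in the fit with the lower filter. Hoxb7, a trunk paralog, was 0.0424 and 0.175 FPKM in female controls and 1.19 and 1.17 FPKM in Snf5 CKO (log2 change 2.69, SE 0.46, adjusted p = 0.0028). Hoxa7, its counterpart in the Hoxa cluster, was 0.313 and 0 FPKM in controls and 1.49 and 1.36 FPKM in Snf5 CKO (2.90, SE 0.67, adjusted p = 0.0094). The Snf5 CKO values of these genes were close to each other, while the control values differed between libraries. Hoxa5, which acts in the development of the lung and the neck vertebrae, was 0.107 and 0.126 FPKM in controls and 0.710 and 0.690 FPKM in Snf5 CKO (1.89, SE 0.40, adjusted p = 0.0067). Leaving out Snf5 CKO replicate 1 or replicate 2 took Hoxa7 to an adjusted p of 0.064 and 0.057, within a range of 0.0011 to 0.15 over its alternatives.

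Paralogs 9 were called higher in the Hoxb and Hoxd clusters in that fit and lay below its filter in the others. These and the 3 genes above reached the filter only through Snf5 CKO and so had to differ, and with no filter at a pseudocount of 0.1 neither paralog 9 was called (adjusted p = 0.063 for Hoxb9 and 0.17 for Hoxd9). Hoxb9, which patterns the ribs, was 0.125 and 0.189 FPKM in female controls and 1.73 and 0.963 FPKM in Snf5 CKO (log2 change 2.45, SE 0.43, adjusted p = 0.0032). Hoxd9, active in the hindlimb and lumbar region, was 0.212 and 0.0124 FPKM in controls and 0.796 and 0.551 FPKM in Snf5 CKO (2.03, SE 0.58, adjusted p = 0.022). In both genes the lowest Snf5 CKO library was above the highest control library. The call of Hoxd9 was lost without control replicate 2 (adjusted p = 0.059), without Snf5 CKO replicate 1 (0.11) and without Snf5 CKO replicate 2 (0.060), in a range of 0.0096 to 0.17. Hoxc9 had 0.207 and 0.186 FPKM in controls against 0.0951 and 0.193 FPKM in Snf5 CKO, and Hoxa9 stayed at or below 0.0450 FPKM in every female library; the groups of both overlapped, and both were named after their values were seen.

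Another 4 genes of this level, from the posterior, trunk and anterior classes, were not called in females. Hoxa13, required for the digits and the genital tubercle, was 1.04 and 0.422 FPKM in controls and 0.780 and 1.05 FPKM in Snf5 CKO, so its groups overlapped (0.38, SE 0.46, adjusted p = 0.50). Hoxa13 and Hoxa4, which overlapped too, were named after their values were seen. Hoxc13, known for its part in hair and nails, was 0.140 and 0.0528 FPKM against 0.338 and 0.387 FPKM (1.27, SE 0.47, adjusted p = 0.053). Hoxa3, needed for the thymus and parathyroid, was 0.325 and 0.282 FPKM against 0.678 and 0.392 FPKM (0.62, SE 0.42, adjusted p = 0.24). Hoxa4 was 0.509 and 0.336 FPKM against 0.790 and 0.456 FPKM, (0.45, SE 0.43, adjusted p = 0.40).

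Counted over all 39 genes without a test, 17 female Hox genes (43.6%) had both Snf5 CKO libraries above both controls and 3 (7.69%) had both below, against 23.8% and 30.4% of the 24281 named genes. Among named genes averaging under 1 FPKM, the shares were 12.3% above and 16.7% below. At 0.2 to 1 FPKM, 7 of 9 Hox genes lay above and none below, against 33.1% and 40.6% of named genes. All of these 7 but Hoxa3 had a control mean under 0.2 FPKM. They reached this level only through Snf5 CKO and had to lie above, so nothing is read from this count. The 3 lower genes were Hoxd1, Hoxd8 and Hoxb3, the last of which did not exceed 0.0143 FPKM. The median Hox difference was 0.27 on the log2(FPKM + 0.1) scale, against 0 for all named genes. Without Hoxd1 and Hoxd8, a pair left out after their values were seen, the female Hox sum was 3.72 and 2.33 FPKM in controls and 10.5 and 8.95 FPKM in Snf5 CKO.

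The counts by cluster and position are read against the same shares of named genes, 23.8% above and 30.4% below. In female Hoxa, 7 of 11 genes were higher and none lower, and the cluster sum was 2.48 and 1.32 FPKM in controls against 5.01 and 4.70 FPKM in Snf5 CKO. In Hoxb, 5 of 10 genes were higher and 1 lower, with sums of 0.263 and 0.491 against 3.35 and 2.61 FPKM. In Hoxc, 4 of 9 genes were higher and none lower, with sums of 0.526 and 0.446 against 1.15 and 1.03 FPKM. The Hoxd sum was 19.0 and 10.3 FPKM in controls and 3.02 and 2.79 FPKM in Snf5 CKO, with 1 gene higher and 2 lower of 9. By position, 2 of 8 anterior genes were higher and 2 lower, 9 of 15 trunk genes were higher and 1 lower, and 6 of 16 posterior genes were higher and none lower. Neither the difference between clusters nor that between positions was tested.

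**Figure D2:**
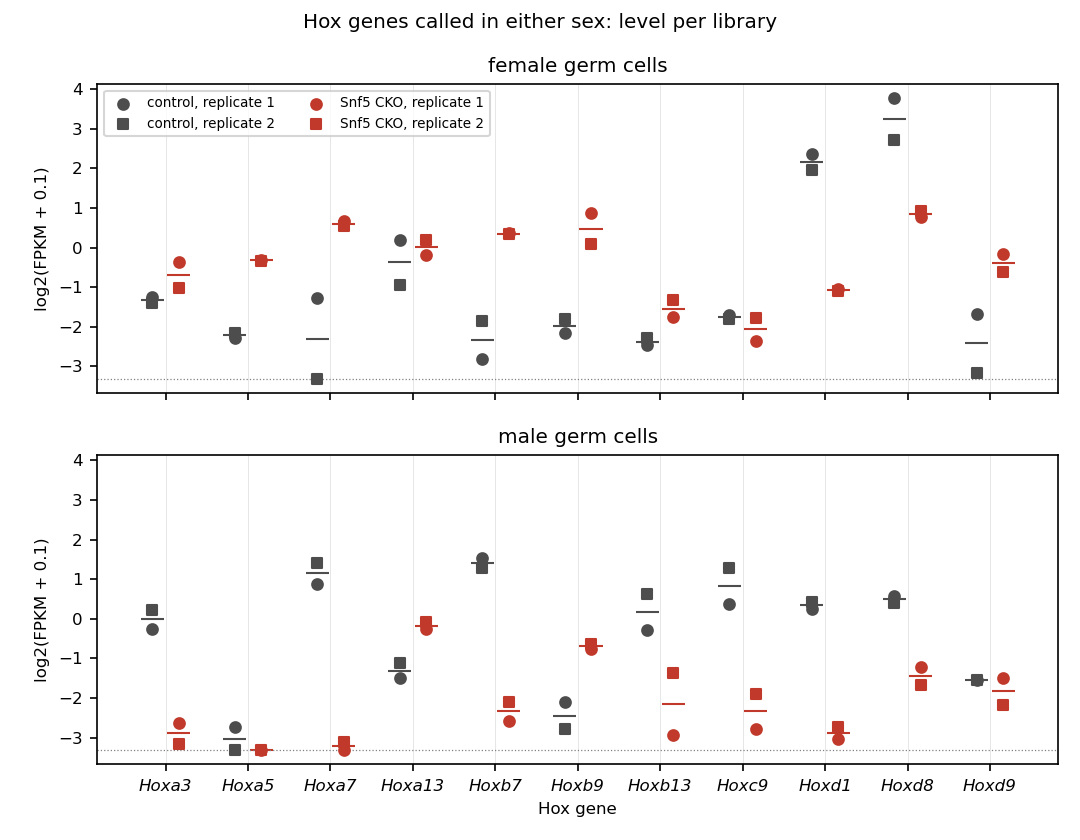
Level of the 11 Hox genes called in at least 1 sex in the fit with a minimum mean of 0.2 FPKM, as log2(FPKM + 0.1), per library; circles and squares are replicates 1 and 2, bars are group means and the dotted line is 0 FPKM. Hoxa7 and Hoxb7 lie higher in Snf5 CKO than in control in females and lower in males, whereas Hoxd1 and Hoxd8 lie lower in Snf5 CKO in both panels.

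In males, the Hox genes at the highest level in control germ cells were lower in Snf5 CKO. Hoxb7 was 2.81 and 2.33 FPKM in the male control libraries and 0.0664 and 0.135 FPKM in the Snf5 CKO libraries. Hoxa7 was 1.73 and 2.57 FPKM in control and 0 and 0.0163 FPKM in Snf5 CKO. The groups of both genes lay far apart. In limma's test on log2(FPKM + 1), Hoxb7 changed by -1.69 (SE 0.17, adjusted p = 0.0029) and Hoxa7 by -1.63 (SE 0.20, adjusted p = 0.0040). These were the 2 Hox genes tested, where 17.5% of the 12368 genes tested were called lower and 14.3% called higher. Both reached the filter only through their controls and so had to differ, and nothing is read from their count. Both calls held in all 17 alternatives, with adjusted p up to 0.030 for Hoxb7 and 0.032 for Hoxa7.

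The fit with the lower filter tested 10 male Hox genes and called 7 lower and 2 higher, where 22.6% of the 15094 genes tested were called lower and 15.6% higher. The 7 were Hoxa7 and Hoxb7 again (log2 changes of -4.36, SE 0.38, adjusted p = 0.0025, and -3.75, SE 0.36, adjusted p = 0.0028) and 5 further genes, from all 4 clusters. As in females, genes that reached the filter only through their controls had to differ. With no filter, Hoxa7, Hoxb7 and Hoxd1 were called lower at a pseudocount of 1, where 6.19% of named genes were called lower and 4.52% higher. At a pseudocount of 0.1 those 3 and Hoxa3 and Hoxc8 were called lower, where 8.44% were called lower and 5.02% higher. Neither unfiltered fit called a male Hox gene higher.

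Anterior and trunk genes made up 3 of these 5, with values on the log2(FPKM + 0.1) scale. Hoxd1 was 1.09 and 1.25 FPKM in male controls and 0.0211 and 0.0516 FPKM in Snf5 CKO (-3.22, SE 0.36, adjusted p = 0.0035). Hoxa3 was 0.730 and 1.07 FPKM in controls and 0.0606 and 0.0124 FPKM in Snf5 CKO (-2.88, SE 0.41, adjusted p = 0.0059). Hoxd8 was 1.39 and 1.23 FPKM in controls and 0.332 and 0.214 FPKM in Snf5 CKO (-1.93, SE 0.35, adjusted p = 0.010). None of the 3 overlapped between groups, and Hoxd1 held its call in all 14 alternatives. The call of Hoxd8 was lost without control replicate 1 (adjusted p = 0.062) and without control replicate 2 (0.057), in a range of 0.0026 to 0.062.

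The other 2 were posterior genes. Hoxc9, which sets motor neuron identity at thoracic level, was 1.19 and 2.32 FPKM in male controls and 0.0462 and 0.170 FPKM in Snf5 CKO (-3.15, SE 0.51, adjusted p = 0.0079). Hoxb13, known from the prostate and the tail, was 0.721 and 1.45 FPKM in controls and 0.0318 and 0.285 FPKM in Snf5 CKO (-2.32, SE 0.65, adjusted p = 0.036). Replicate 2 was the higher library in both groups of both genes. On linear FPKM neither gene was called (adjusted p = 0.067 for Hoxc9 and 0.097 for Hoxb13). The same held with no filter at a pseudocount of 0.1 (0.068 and 0.17). Hoxc9 lost its call without control replicate 2 (adjusted p = 0.057; range 0.00015 to 0.080). Hoxb13 lost it without control replicate 1 (0.10), control replicate 2 (0.18) or Snf5 CKO replicate 1 (0.084), in a range of 0.0022 to 0.18.

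Hoxb9 and Hoxa13 were called higher in males in the fit with the lower filter, and neither was called with no filter at a pseudocount of 0.1 (adjusted p = 0.067 and 0.099). Hoxb9 reached the filter only through Snf5 CKO and so had to differ. Hoxb9 was 0.134 and 0.0442 FPKM in controls and 0.486 and 0.546 FPKM in Snf5 CKO (1.74, SE 0.41, adjusted p = 0.023). Hoxa13 was 0.254 and 0.359 FPKM in controls and 0.737 and 0.838 FPKM in Snf5 CKO (1.14, SE 0.34, adjusted p = 0.046). In the Snf5 CKO libraries Hoxa13 was the Hox gene at the highest level. Hoxb9 lost its call without control replicate 2 (adjusted p = 0.066), Snf5 CKO replicate 1 (0.052) or Snf5 CKO replicate 2 (0.063), in a range of 0.013 to 0.067, and Hoxa13 lost it whichever library was left out (0.080 to 0.14; range over all alternatives 0.023 to 0.15) and after scaling to a common sum (0.99, adjusted p = 0.15). Hoxd9, the only male gene tested that was not called, was 0.243 and 0.244 FPKM in controls and 0.257 and 0.120 FPKM in Snf5 CKO (-0.29, SE 0.41, adjusted p = 0.59); it was named after its values were seen.

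Over all 39 genes, 19 male Hox genes (48.7%) had both Snf5 CKO libraries below both controls and 3 (7.69%) had both above, against 33.1% and 22.6% of the 23944 named genes. Among named genes averaging under 1 FPKM, 25.9% lay below and 9.85% above. At 0.2 to 1 FPKM, where 5 of 8 Hox genes lay below and 2 above, 52.3% of named genes lay below and 24.4% above, so the male members of that level were close to the background. Members that reached this level only through 1 group had to differ. The median Hox difference was -0.36 on the log2(FPKM + 0.1) scale, against 0 for all named genes and -0.71 for named genes of 0.2 to 1 FPKM.

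By cluster and position, the male counts are read against the 33.1% of named genes that lay below and the 22.6% that lay above, or 25.9% and 9.85% of those under 1 FPKM. In Hoxa, 6 of 11 genes were lower and 1 higher, and the sum was 3.13 and 4.35 FPKM in controls against 0.825 and 0.866 FPKM in Snf5 CKO. In Hoxb, 6 of 10 were lower and 1 higher, with sums of 3.95 and 4.76 against 0.605 and 0.978 FPKM. In Hoxc, 4 of 9 were lower and 1 higher, with sums of 1.84 and 2.96 against 0.334 and 0.541 FPKM. In Hoxd, 3 of 9 were lower and none higher, with sums of 2.85 and 3.04 against 0.700 and 0.547 FPKM. By position, 6 of 8 anterior genes, 7 of 15 trunk genes and 6 of 16 posterior genes were lower, and none, 1 and 2 were higher. The lower counts of Hoxd and of the posterior genes were thus near the background. The anterior genes summed to 2.01 and 2.81 FPKM in controls and to 0.0817 and 0.0850 FPKM in Snf5 CKO. The posterior sum, 3.02 and 5.15 against 1.73 and 2.32 FPKM, included the increase of Hoxb9 and Hoxa13.

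**Figure D3:**
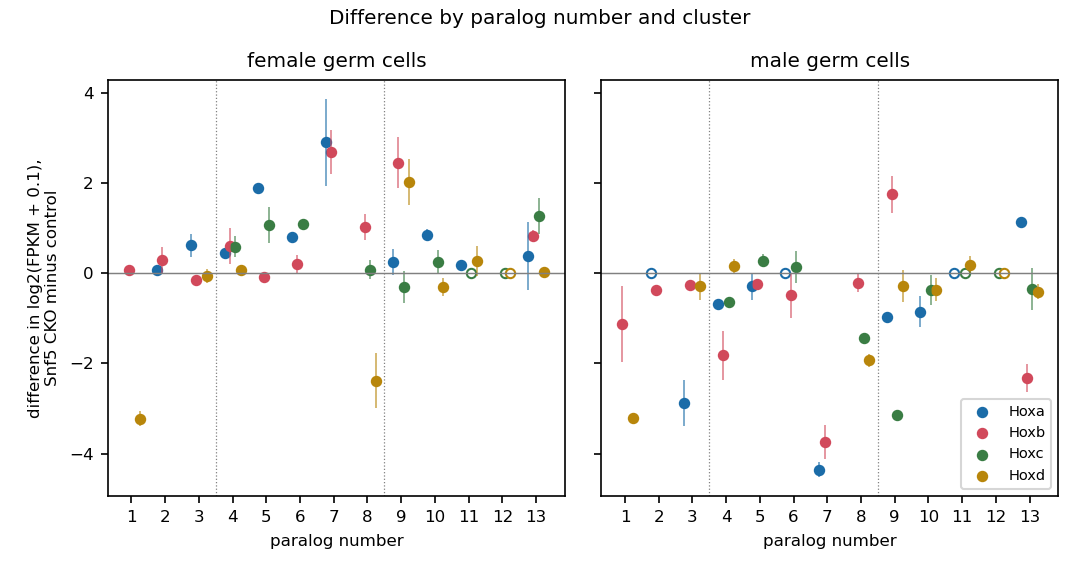
Difference in log2(FPKM + 0.1) between Snf5 CKO and control for each Hox gene reported singly, by paralog number and cluster, in females and males; vertical lines join the differences of replicates 1 and 2, open points are genes at 0 in all 4 libraries, and dotted lines part anterior, trunk and posterior paralogs. Paralogs 7 are the highest female points and the lowest male points, and Hoxd1 and Hoxd8 lie below 0 in both panels.

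Placed side by side, the sexes shared some directions and not others. The tables were quantified separately, so levels were compared only within a sex, and the changes of the sexes are set side by side without a test. Hoxd1, Hoxd8 and Hoxb3 were lower in both, and Hoxb9 and Hoxc5 were higher in both, where 15.4% of the 21698 genes with a single row in each table were lower in both and 11.5% higher in both. For 7 genes reported here, namely Hoxa3, Hoxa7, Hoxa10, Hoxb4, Hoxb7, Hoxb13 and Hoxc4, both Snf5 CKO libraries were above the controls in females and below them in males. Of the 21698 genes, 7.1% showed this pattern, and of the 9853 that averaged under 1 FPKM in both tables, a class to which 5 of the 7 belong and Hoxa7 and Hoxb7 do not, 2.84%. No gene reported here showed the opposite, which 6.23% of the 21698 did. In the fit with the lower filter, the female difference of Hoxa7 and Hoxb7 was 2.90 and 2.69, and their male difference was -4.36 and -3.75, on the log2(FPKM + 0.1) scale. In each sex both reached that filter only through the group in which they were high and so had to differ. With no filter at a pseudocount of 0.1, the female adjusted p was 0.15 for Hoxa7 and 0.059 for Hoxb7.

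**Figure D4:**
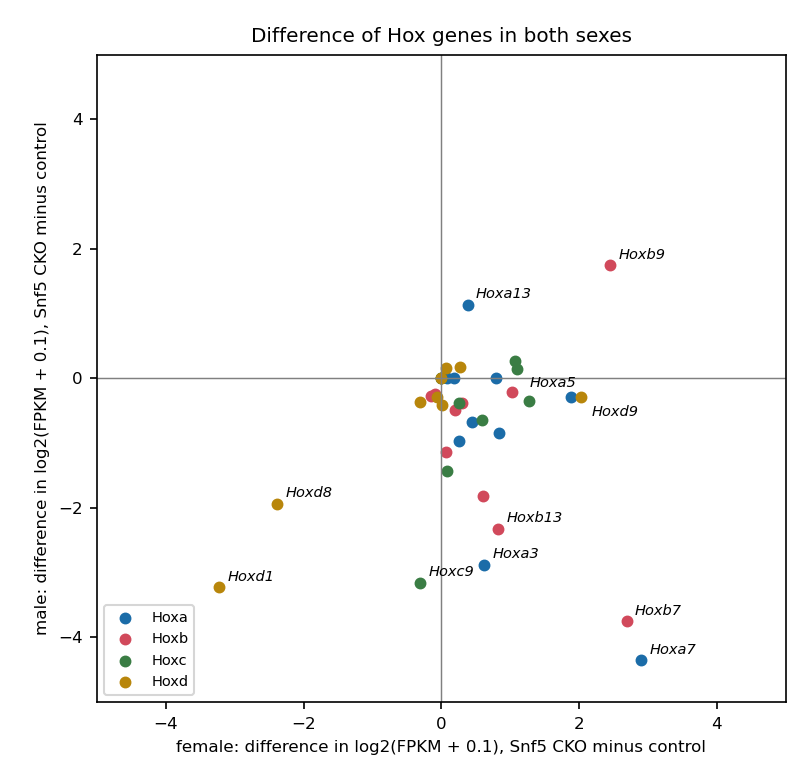
Difference in log2(FPKM + 0.1) between Snf5 CKO and control of each Hox gene reported singly in females (horizontal) and males (vertical), coloured by cluster, with the called genes named. Hoxa7 and Hoxb7 lie in the quadrant of a female increase with a male decrease, Hoxd1 and Hoxd8 in that of a decrease in both, and Hoxb9 in that of an increase in both.

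Somatic markers moved with these groups, and their part in the Hox differences was not tested. The background for their counts in females was 17.2% of genes tested called higher and 21.8% lower, and 23.8% of named genes above without overlap and 30.4% below. In females, the 9 pre-granulosa genes summed to 11.9 and 14.9 FPKM in controls and 34.5 and 32.3 FPKM in Snf5 CKO, with 8 of 9 genes higher in both Snf5 CKO libraries than in both controls, 4 of 8 tested genes called higher and Bmp2 called lower. The 12 Sertoli genes, several of which pre-granulosa cells share, summed to 11.8 and 15.5 against 24.3 and 23.0 FPKM, with 7 genes higher and 2 lower. Of 5 tested Sertoli genes, 1 was called higher and none lower. The 6 Leydig genes summed to 4.74 and 4.94 against 12 and 11.9 FPKM, with 1 of 2 tested genes called higher. The called row carries the names Insl3 and Jak3, whose reads the table does not part, and made up 3.13 and 3.99 FPKM of the control sums and 8.52 and 10.1 FPKM of the Snf5 CKO sums. The 7 mesonephros genes summed to 3.58 and 2.88 against 12.7 and 9.70 FPKM, but only Lhx1 among them was tested, and it rose from 1.24 and 1.09 to 9.68 and 7.66 FPKM (log2 change 2.15, adjusted p = 0.00027). The stromal sum was 14.6 and 6.99 FPKM in controls and 4.50 and 5.75 FPKM in Snf5 CKO, with 4 of 9 genes lower and none higher. Blood and endothelial genes, with the row that Hba-a1 and Hba-a2 share counted once, summed to 26.7 and 99.8 against 29.4 and 84.8 FPKM, so that the groups overlapped. Without rows of more than 1 name, which hold the haemoglobin genes, the sums were 7.45 and 5.03 against 26.5 and 20.7 FPKM. Pecam1 was called higher, from 4.10 and 3.65 to 24.3 and 19.7 FPKM (2.23, adjusted p = 0.00021), while 3 genes were lower without overlap. Most of each sum without rows of more than 1 name was Pecam1, so the rise of that sum rested on this gene. Which cells its signal came from was not tested.

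In males the background was 14.3% called higher and 17.5% lower, and 22.6% above without overlap and 33.1% below. All 12 male Sertoli genes were called higher, and their sum was 167 and 127 FPKM in controls and 685 and 1021 FPKM in Snf5 CKO. Leydig genes, by contrast, summed to 86.1 and 58.3 against 19.2 and 15.1 FPKM, with all 6 genes lower in both Snf5 CKO libraries than in both controls and 3 of 5 tested genes called lower. Stromal genes summed to 23.2 and 12 against 6.31 and 4.49 FPKM, with 8 of 9 genes lower and 3 of 4 tested genes called lower. The mesonephros sum rested on Lhx1, which rose from 5.58 and 4.84 to 45 and 36.7 FPKM, while Pax8 fell from 2.39 and 3.56 to 0.158 and 0.459 FPKM and 5 of the 7 genes were lower in Snf5 CKO. Pre-granulosa genes summed to 15.3 and 15.2 against 33.1 and 36.7 FPKM, with 4 of 9 higher and 4 lower, 2 called higher and 1 called lower. Blood and endothelial genes summed to 66.8 and 106.6 against 62.7 and 67.1 FPKM, so that the groups overlapped. Without overlap, 1 of them was higher and 4 were lower, and of 7 tested 1 was called higher and 2 lower. Without rows of more than 1 name, their sums were 27.0 and 32.5 against 22.9 and 23.3 FPKM. The male Hox sum, the Leydig sum and the stromal sum were thus lower in Snf5 CKO, and the Sertoli, pre-granulosa and mesonephros sums were higher.

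**Figure D5:**
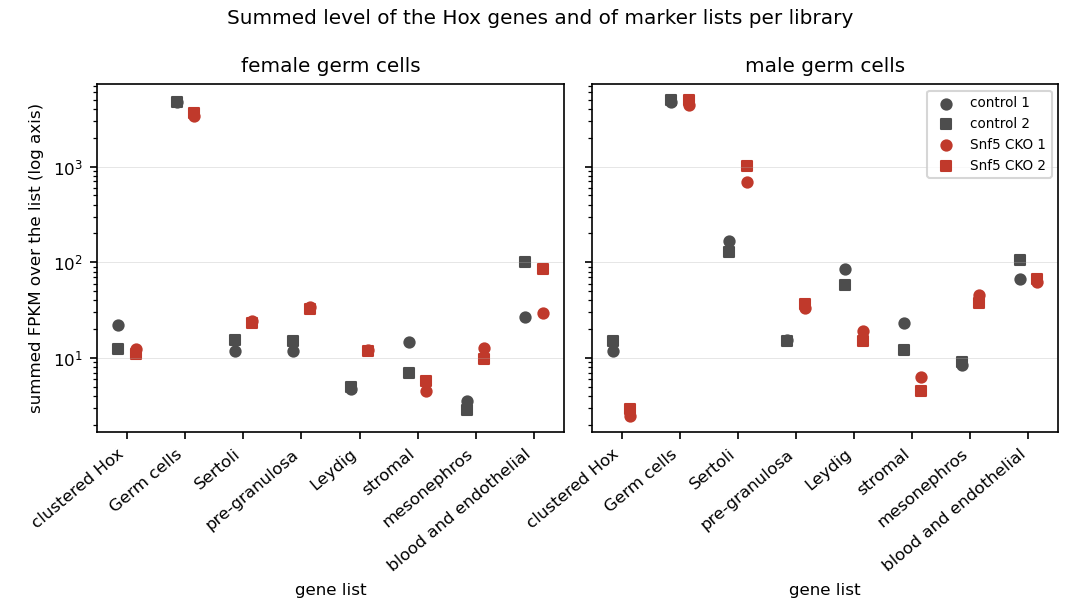
Summed FPKM of the 39 Hox genes and of each marker list per library, on a log axis; circles and squares are replicates 1 and 2. In males the Hox, Leydig and stromal sums are lower in Snf5 CKO and the Sertoli sum is higher, as are the pre-granulosa and mesonephros sums, and in females the Sertoli, pre-granulosa, Leydig and mesonephros sums are higher in Snf5 CKO.

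Noncoding and unnamed rows within the clusters were examined next. The Haglr row, which ends 84 bases before the start of Hoxd1, was 0.397 and 0.556 FPKM in female controls and 0.0499 and 0.0934 FPKM in Snf5 CKO (log2 change -1.75 in the fit with the lower filter, adjusted p = 0.015). The male table gives the row of the same coordinates another name, 6720416L17Rik, and there it was 0.441 and 0.538 FPKM in controls and 0 and 0.185 FPKM in Snf5 CKO (-1.80, adjusted p = 0.057). An unnamed female row at chr2:74703002-74703622, which ends 993 bases before Hoxd8, was 3.35 and 2.52 FPKM in controls and 0.355 and 0.478 FPKM in Snf5 CKO; unnamed rows were not tested. Both rows were lower in Snf5 CKO, as was the Hox gene next to them. Libraries of this kind do not mark strand, so transcripts that overlap on opposite strands cannot be told apart.

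Around Hoxa, the noncoding row Mira was 0.0773 and 0.0389 FPKM in female controls and 0.308 and 0.798 FPKM in Snf5 CKO (1.95, adjusted p = 0.019). In males it was 0.431 and 0.810 FPKM in controls and 0 and 0.148 FPKM in Snf5 CKO (-2.14, adjusted p = 0.035). In each sex Mira reached the filter only through the group in which it was high and so had to differ, and the difference between the sexes was not tested. Gm15055, beyond the anterior end of Hoxa, was 2.35 and 4.36 FPKM in male controls and 0.0497 and 0 FPKM in Snf5 CKO (-4.76, adjusted p = 0.0028). Like Mira, Gm15055 in males and the Haglr row in females reached the filter only through 1 group. Other rows rose in males. Gm53, within Hoxb, was 0.303 and 0.265 FPKM in male controls and 1.47 and 1.92 FPKM in Snf5 CKO (2.22, adjusted p = 0.0064), while its female groups overlapped. 5730457N03Rik, which shares the interval of Evx1, was 0.202 and 0.346 against 1.33 and 1.15 FPKM in males (1.86, adjusted p = 0.013). In females it fell from 4.86 and 3.36 to 0.923 and 0.640 FPKM (-2.25, adjusted p = 0.0016). The rows named Hotair and Evx2 were at 0 in all 8 libraries. The rows of the cluster miRNAs Mir10a, Mir10b, Mir196a-1, Mir196a-2, Mir196b and Mir615 were at 0 there as well. Those of Mir196b and Mir196a-2 span only 85 bases and that of Mir10a 110. Whether these libraries capture such short transcripts was not tested, so absence of the miRNAs is not read from the 0 values.

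Protein-coding neighbours of the clusters differed among themselves. Evx1, a homeobox gene beside Hoxa13, was 0.338 and 0.346 FPKM in male controls and 4.61 and 4.18 FPKM in Snf5 CKO (log2 change 2.01 on the log2(FPKM + 1) scale, adjusted p = 0.0023), while 6 of 11 Hoxa genes were lower there. In females it was 1.40 and 1.72 FPKM in controls and 2.35 and 2.77 FPKM in Snf5 CKO (0.48, adjusted p = 0.071). Skap2, an adaptor protein gene on the anterior side of Hoxa, fell in both sexes, from 71.4 and 68.0 to 35.6 and 31.1 FPKM in females and from 61.8 and 58.7 to 16.8 and 17.2 FPKM in males. Hibadh, an enzyme of valine breakdown, fell likewise (female -1.22, adjusted p = 0.0014; male -1.27, adjusted p = 0.0060). Calcoco2, an autophagy receptor gene near Hoxb, rose in both sexes, from 0.515 and 1.04 to 10.7 and 16.7 FPKM in females (3.03, adjusted p = 0.00023) and from 0.275 and 0.422 to 1.78 and 2.47 FPKM in males (1.20, adjusted p = 0.0079). In females the row of Hnrnpa1, which also carries the name Gm5643, rose (2.67, adjusted p = 0.00017) and Lnp fell (-1.61, adjusted p = 0.00067). Of the neighbours tested, 2 of 9 were called higher and 3 lower in females, and 2 of 9 higher and 2 lower in males. Over all genes tested in that fit, which also gave the calls of the lists that follow, 17.2% were called higher and 21.8% lower in females, and 14.3% higher and 17.5% lower in males. A gene that reached 1 FPKM on average only through 1 group had to differ, as did Evx1 in males and Calcoco2 in both sexes. Further on, so did Cyp26a1, Meis3 and Six4 in females, Meis2 and Pknox2 in males, and Lhx8 in both sexes.

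Of 11 genes for Cdx factors and retinoic acid receptors and enzymes, inputs that act upstream of Hox genes, 7 were tested in females and 5 were called higher, with none lower, where 17.2% of all genes tested were called higher. Rxra and Rxrb were tested and not called. Cdx2, which activates trunk Hox genes in the tail bud, was 3.38 and 3.64 FPKM in female controls and 102 and 77.4 FPKM in Snf5 CKO (4.32, adjusted p = 0.00011). Cdx1 was 4.21 and 3.58 against 25.1 and 25.0 FPKM (2.42, adjusted p = 0.00014). Rarg, a retinoic acid receptor, was 1.40 and 0.942 against 9.40 and 9.93 FPKM (2.30, adjusted p = 0.00022), and Cyp26a1, which degrades retinoic acid, was 0.199 and 0.138 against 3.86 and 4.60 FPKM (2.16, adjusted p = 0.00022). The list's median log2 change was 2.16, against -0.14 over all genes tested. In males, 4 genes of the list were tested, and Rxra (-1.21, adjusted p = 0.0079) and Rarg (-1.16, adjusted p = 0.012) were called lower. The male median was -0.56, against -0.07 over all genes tested. No Cdx gene reached 1 FPKM on average in males.

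TALE homeodomain proteins bind DNA together with Hox proteins. In females, 5 of 9 were tested, and Meis3, Pknox2 and Pbx2 were called higher and Pbx3 lower. Pbx3 was 174 and 127 FPKM in female controls and 19.8 and 16.9 FPKM in Snf5 CKO (-2.96, adjusted p = 0.00013), and Meis3 was 0.489 and 1.27 against 6.90 and 6.31 FPKM (2.05, adjusted p = 0.00067). In males, 8 were tested, Pknox2 was called higher, and Pbx4 and Meis2 were among those called lower. Meis2 was 1.80 and 2.2 against 0.196 and 0.269 FPKM (-1.28, adjusted p = 0.0049). Pknox2 was 0.335 and 0.177 against 8.95 and 4.87 FPKM (2.61, adjusted p = 0.0036).

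Polycomb and Trithorax genes were all expressed. Of 22 genes, all tested in both sexes, 5 were called higher and 2 lower in females, and 1 higher and 3 lower in males. The backgrounds were 17.2% higher and 21.8% lower in females, and 14.3% higher and 17.5% lower in males. Ezh1, a histone H3 lysine methyltransferase of Polycomb repressive complexes, fell in both sexes, from 34.4 and 29.7 to 14.5 and 10.1 FPKM in females (-1.33, adjusted p = 0.0021) and from 93 and 63.5 to 10.3 and 8.58 FPKM in males (-2.90, adjusted p = 0.0023). Ezh2, its paralog, rose in males from 20.9 and 21.6 to 52.8 and 55.5 FPKM (1.31, adjusted p = 0.0040). Kdm6a, a demethylase that counters Polycomb, fell in females from 78.7 and 53.4 to 20.1 and 16.4 FPKM (-1.78, adjusted p = 0.00085). Phc2, a Polycomb subunit, rose in females from 13.8 and 13.2 to 46.5 and 35.8 FPKM (1.53, adjusted p = 0.00072). The median over the list was 0.05 in females and 0.12 in males.

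Homeobox genes outside the clusters gave a comparison of level and direction. Of 77 other patterning homeobox genes, 26 were tested in females, of which 10 were called higher and 6 lower. In males 28 were tested, of which 13 were called higher and 7 lower. Their median log2 change was 0.45 in females and 0.71 in males, against -0.14 and -0.07 over all genes tested. In males, Lhx8, a LIM homeobox gene of the early oocyte and forebrain, was 0.480 and 0.698 FPKM in controls and 15.1 and 14.2 FPKM in Snf5 CKO (3.30, adjusted p = 0.0022). Six4, of muscle and gonad development, was 0.659 and 0.814 FPKM in female controls and 13.4 and 14.8 FPKM in Snf5 CKO (3.12, adjusted p = 0.00011), and Msx2 was 7.33 and 9.26 against 59.6 and 57.9 FPKM (2.69, adjusted p = 0.00011). The largest female change of the list was a decrease (-3.14, adjusted p = 0.00011), in a row shared with a gene outside the list. Lhx8 fell in females, from 4.87 and 4.36 to 0.237 and 0.544 FPKM (-2.02, adjusted p = 0.00034). No clustered Hox gene exceeded 1.81 FPKM in any Snf5 CKO library of either sex.

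Promoter windows of 300 bases, from 250 before to 50 after a start, were given for 22 of the 39 Hox genes, in 24 windows, in the same RefSeq table. They held a median of 14.5 CG dinucleotides, with a range of 4 to 45, against a median of 7 over all 32851 windows. The Hoxd1 window held 29, more than 87.1% of all windows, and the Hoxd8 window held 6, more than 43.6%. Motifs were searched on both strands. The Cdx letters TTTATG were in 20.8% of Hox windows and 11.9% of all windows, with 2 matches each in the windows of Hoxa7, Hoxb8 and Hoxd4, 1 each in a window of Hoxd3 and of Hoxd11, and none in the other Hox windows, those of Hoxa5, Hoxd1, Hoxd8 and Hoxd9 among them. The PBX-HOX letters TGATTNAT were in 8.33% and 3.22%, the direct repeat bound by retinoic acid receptors in 0% and 0.00913%, and the letters GAGAG in 66.7% and 62.0%. A match is a description of the letters in the window, and the windows of Hoxb7 and Hoxb9 were not among those given.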

How the data were processed

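RNA-seq of Oct4-EGFP-sorted E15.5 germ cells was analysed from 8 libraries, 2 per sex and genotype. The authors amplified cDNA by SMART-Seq v4, made Nextera XT libraries, which do not mark strand, and deposited FPKM per gene from the Tophat and Cufflinks tools on mm10, in a separate table for each sex (per the labels, TopHat2 2.2.1 and Cuffdiff 2.1.1; the methods name other versions). The annotation version and the library-size normalization are not given in the sources used here. The deposited tables also hold status columns and 16 columns of confidence bounds; the bounds were not used. The total depth is unknown. Steps of low FPKM values gave relative depths with ambiguity by a factor of about 2, so no interval or floor was computed.

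The female and the male table were fitted apart in limma 3.58.1 (R 4.3.3). The fit used log2(FPKM + 1) and a trend on the mean, over named rows averaging at least 1 FPKM, and p-values were adjusted by Benjamini-Hochberg over all rows tested; fold changes of low genes are understated on this scale. Genes were called at an adjusted p below 0.05 and a log2 change of at least 1 in size. A count model does not apply to FPKM, and the methods' test on duplicates was replaced by limma, which pools the spread over genes. An exact permutation test of 2 against 2 libraries cannot go below p = 0.333. The scripts were tested on simulated data. Member rows averaging at least 1 FPKM were given in every library; others were named where their groups did not overlap or, as said, after their values were seen. Other lists were given by counts and by some of the genes with large changes. Some single genes of the lists are not reported here, though counts and sums include them. The members and lists were chosen with earlier results of these data known. Alternatives covered the pseudocount, the filter, scaling, the trend, linear FPKM, row status, row names, a replicate block and leaving out each library.

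The labels give the raw data of replicates 1 and 2 in different styles, and the male columns name them as separate experiments, so a number was taken as a shared batch. Subtracting replicate 1 from replicate 2 within controls and within Snf5 CKO gave differences that correlated across genes (r = 0.504 in females, 0.595 in males). Member coordinates are 1-based: the deposited start plus 1 is an annotated GENCODE start for 22 of 39 female and 25 of 39 male Hox rows, against 2 and 3 as deposited. Rows of Hoxa3 to Hoxa6, and of Hoxd3 and Hoxd4, share 1 locus interval in both tables, and so do Hoxb5 and Hoxb6 in females, so fragments may be split between them. Python 3.11.15 was used for counts and figures.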

Additional observations from a re-analysis of the deposited data

Results flagged for a closer look

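For 7 Hox genes reported here, the Snf5 CKO libraries exceeded the controls without overlap in females and were under them without overlap in males. The difference between the sexes was not tested, since the tables were quantified separately. The same pattern was seen in 7.1% of the 21698 genes with a single row in each table, and in 2.84% of the 9853 of them that averaged under 1 FPKM in both, as 5 of the 7 did and Hoxa7 and Hoxb7 did not. The female difference minus the male difference, on the log2(FPKM + 0.1) scale, was 7.26 for Hoxa7, 6.439 for Hoxb7, 3.497 for Hoxa3, 3.15 for Hoxb13, 2.422 for Hoxb4, 1.695 for Hoxa10 and 1.229 for Hoxc4. Of these, Hoxa10, Hoxb4 and Hoxc4 averaged under 0.2 FPKM in both sexes.

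An unnamed male row at chr6:52305142-52305711, outside the Hoxa genes on the side of Hoxa13, had a signal in both Snf5 CKO libraries (0.103013 and 1.39 FPKM) and was listed at 0 in both controls. It was in no comparison of the report.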

How the results depend on the processing

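The main fit called no Hox gene higher in either sex and 2 lower in each; at an unadjusted p below 0.05, limma gave 2 Hox genes in each sex, both of them lower. With a mean of at least 0.2 FPKM and a pseudocount of 0.1, it called 5 higher in females, 2 higher in males and 7 lower in males, and with the replicate block added the counts were again 5, 2 and 7. Without a filter and with a pseudocount of 0.1, it called 2 higher and 1 lower in females and 5 lower in males. In females, 1 gene was called lower without a filter, 1 at a mean of at least 5 FPKM and 1 on linear FPKM. In males, none (0) was called lower at a mean of at least 5 FPKM, where no Hox gene was left to test. Leaving out each library in turn left 2 called lower and 0 called higher in each sex each time; each such fit sets 1 library against 2, and the lone library is assumed to vary like the other group. With 1 library left out, 18 to 24 female Hox genes lay above the remaining controls without overlap, and 4 to 7 lay below. In males, 4 to 6 Hox genes lay above and 21 to 22 below. The matching shares of named genes were not computed. Since 1 library separates from 2 more easily than 2 from 2, nothing is read from these counts. Over the fits without 1 library, the direction turned for Hoxa13 in females, from -0.1829 without control replicate 2 to 0.9429 without control replicate 1. It also turned for Hoxd9 in males, from -0.6412 without Snf5 CKO replicate 1 to 0.05677 without Snf5 CKO replicate 2. Neither gene was called. Hoxc13 passed in females after median-of-ratios rescaling (1.38, adjusted p = 0.038), without a trend (1.27, adjusted p = 0.017) and without control replicate 1 (1.60, adjusted p = 0.030), over a range of 0.017 to 0.11. The median-of-ratios rescaling shifted the median of all genes by 0.16 in females and 0.15 in males on the log2 scale, and a common sum shifted it by 0.02 and -0.17. The replicate block changed no Hox call: 2 were lower in each sex in the main fit with it. The depth of the libraries is unknown, and Hox genes averaging above 0 and under 0.2 FPKM, 25 in females and 23 in males, cannot be ranked by these data. The calls rest on 2 libraries per group.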
